A study of Mus musculus with 21 samples.

Results

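The response of normal mouse mammary fibroblasts to transforming growth factor beta 1 (TGFb1) was read in 6 of the 21 RNA sequencing libraries of the study, across all genes. Both groups, with 3 libraries each, held fibroblasts of the line NF1, grown from normal mammary glands of FVB/n mice in DMEM with 10% serum, seeded at 60% confluence and transfected with 100 nM control siRNA. One group received 5 ng/mL TGFb1 from 5 h after transfection, for 43 h, the other received vehicle, and RNA was taken from both 48 h after transfection. The control siRNA and the transfection are therefore common to both groups, and NF1 is a single line, so that differences between lines or animals are not sampled. The other 15 libraries came from NF1 with TGFb1 and knockdown of Hsp90aa1 or Hsp90ab1, and from CAF1, a line of fibroblasts of MMTV-PyMT mammary carcinomas, given vehicle after control siRNA or either knockdown. They served to estimate the spread between libraries and, for some genes, as levels set beside the response. Counts were given for 45706 genes, and 15230 of them were expressed highly enough to be tested. The labels do not say whether the replicates were separate cultures, and the spread that the p-values rest on may therefore be technical.

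TGFb1 is a secreted cytokine that is held in the matrix in a latent form and acts once it is released. It binds a pair of receptor kinases, the type II receptor activates the type I receptor, and this phosphorylates the transcription factors SMAD2 and SMAD3, which enter the nucleus with SMAD4. In fibroblasts the pathway is known for driving the change to the myofibroblast, a contractile cell that lays down collagen in wounds, fibrosis and tumour stroma, and for inducing inhibitors of its own signal.

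Total counts per library ranged from 37402932 to 59358741. The fibroblast marker Vim was at 1813 to 1970 normalised CPM (counts scaled to library size) and the type I collagen genes Col1a1 and Col1a2 at 1961 CPM or more in each library. Thy1 and Lum, both widely used fibroblast markers, were almost absent, at 0.285 and 0.0348 CPM on average with vehicle. Markers of other cells were low in both groups. The 7 epithelial markers summed to 0.42 to 0.606 CPM with vehicle and 1.07 to 1.71 CPM with TGFb1. The 6 endothelial ones summed to 0.553 to 0.809 and 0.709 to 1.02 CPM, and the 4 glial ones to 0.629 to 0.858 and 1.4 to 1.86 CPM. The 6 pericyte ones, of which Notch3 made up most, summed to 9.05 to 15.3 and 7.51 to 14.1 CPM. The 6 immune markers came to 3.0 to 4.44 and 3.97 to 5.53 CPM, nearly all from Csf1r, and the pan-leukocyte gene Ptprc was at 0 in 5 of 6 libraries. Of the 4 adipocyte markers 3 were at 0 with vehicle and 1 with TGFb1. Mitochondrial genes took 4.3%, 2.56% and 2.19% of the counts with vehicle and 2.81%, 2.21% and 1.93% with TGFb1, so that vehicle replicate 1 stood above the rest. The part of these markers and of the mitochondrial share in the results was not tested.

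The response was broad. Genes were called, and are said to have passed, where edgeR's quasi-likelihood test gave an adjusted p under 0.05 (Benjamini-Hochberg, over the tested genes). This held for 4410 of 15230 genes, 29.0%. Of these 2223 rose (14.6% of those tested) and 2187 fell (14.4%), and past 2-fold 724 rose (4.75%) and 669 fell (4.39%). Rises outnumbered falls more among the larger changes: 309 genes rose and 246 fell over 4-fold, 78 and 35 over 16-fold, and 40 and 13 over 32-fold. The 3 vehicle and 3 TGFb1 libraries did not overlap for 5929 genes (38.9%). Among the genes that passed 99.8% moved the same way between all 3 same-numbered pairs of libraries, against 64.9% of all tested genes. Since these genes were called from the same libraries, such agreement is largely built in and gives no separate support. With the replicate number as a block 5542 genes passed (36.4%), among them 4408 of the 4410. The main fit left this block out, and values given without mention of the block come from fits without it. The median log2 fold change of all tested genes was -0.03, close to 0. The counts for gene lists below are to be read beside the shares of all tested genes: 29.0% passed, 14.6% rose and 14.4% fell. The lists were chosen with earlier results of these data known, so an excess over these shares may be partly built in. In these bulk libraries a lower share of cells that express a gene and less RNA per cell cannot be told apart.

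**Figure D1:**
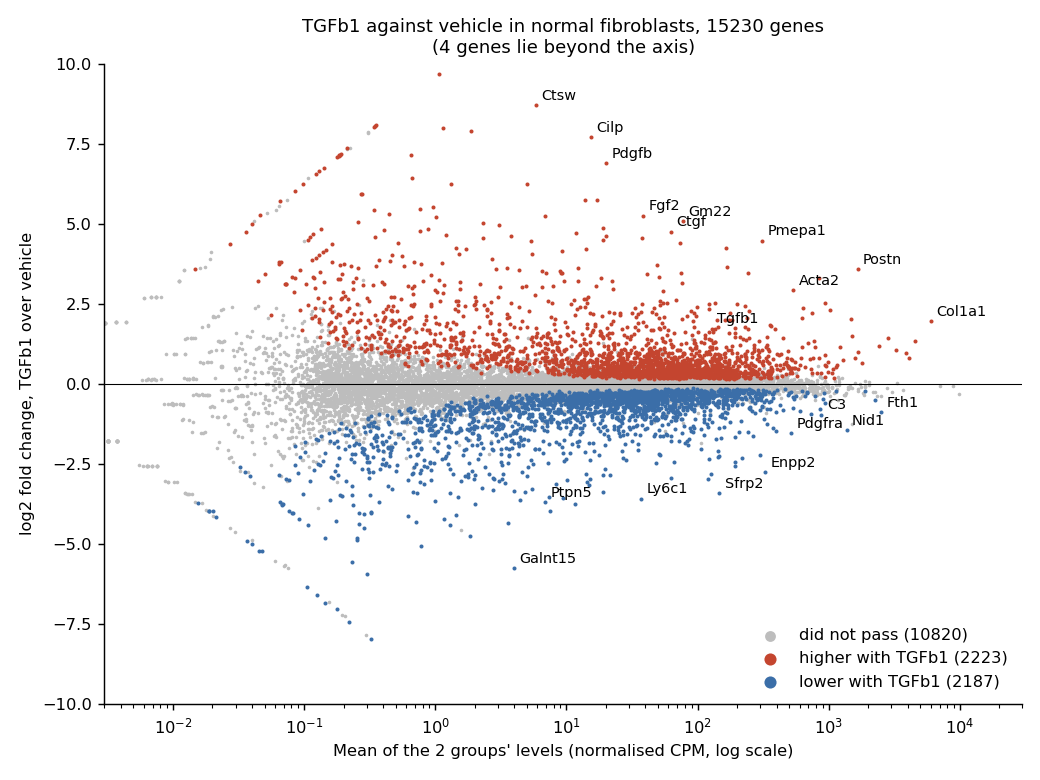
Log2 fold change of TGFb1 over vehicle (y axis) against the mean of both groups' levels in normalised CPM (x axis, log scale), 1 point per tested gene, with genes at an adjusted p under 0.05 in red (2223 higher) and blue (2187 lower). Large rises, such as those of Ctsw and Pdgfb, came from levels near 0, whereas Col1a1, Postn and Acta2 rose at high levels. In all, 4 genes lie beyond the axes.

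Among the genes that passed, reached 5 CPM or more in the higher group and did not overlap, those nearly silent with vehicle led the rises. Some genes below 5 CPM had larger log2 fold changes than most of these, such as Cntn2 at 9.68. Ctsw (ENSMUSG00000024910, GRCm38 chromosome 19, 5465043 to 5468507, minus strand), which encodes cathepsin W, a protease best known from lymphocytes, stood at 0, 0.0225 and 0.0572 CPM with vehicle and 11.6, 11 and 12.4 CPM with TGFb1. For Ctsw the log2 fold change was 8.70 ± 0.55 (adjusted p = 3.24e-09). The groups were far apart, and the 3 treated libraries lay close together. The fold rests on vehicle levels near 0, and the log2 fold change was 8.05 without vehicle replicate 1 and 9.89 without vehicle replicate 3. Ctsw overlaps Fibp on the other strand, whose level was 23.7 and 21.9 CPM in the same libraries (log2 fold change -0.11 ± 0.10, adjusted p = 0.415). Cilp (chromosome 9, 65265180 to 65280605, plus strand), a secreted cartilage matrix protein that can bind TGFb1, stood at 0.215, 0.0674 and 0.133 CPM with vehicle and 26.3, 23.7 and 41.9 CPM with TGFb1. Cilp had a log2 fold change of 7.70 ± 0.65 (adjusted p = 8.36e-08). Pdgfb (chromosome 15, 79995874 to 80014977, minus strand), which encodes the B chain of platelet-derived growth factor, stood at 0.414, 0.314 and 0.267 CPM with vehicle and 45.9, 41.7 and 32.3 CPM with TGFb1. For Pdgfb the log2 fold change was 6.89 ± 0.38 (adjusted p = 7.39e-10). Here and below log2 fold changes are given ± SE and mean levels ± SD (n = 3 libraries). Next came Wnt11, a Wnt ligand (from 0.134 ± 0.0785 to 9.87 ± 1.2 CPM), and Acsbg1, an acyl-CoA synthetase (from 0.508 ± 0.331 to 27.2 ± 1.71 CPM). They were followed by Aldh1a3, which makes retinoic acid (from 0.619 ± 0.242 to 33.4 ± 5.21 CPM), and Fgf2, a fibroblast mitogen (from 1.93 ± 1.16 to 74.6 ± 18.7 CPM). Olfm2, the long noncoding gene Gm22, Abcb1a, Prg4, Ctgf, Megf10, Cmklr1 and Tnnt2 followed at log2 fold changes from 4.62 to 5.24. Ctgf, the matricellular connective tissue growth factor, stood at 4.96, 4.96 and 3.47 CPM with vehicle and 164, 117 and 83.6 CPM with TGFb1. Ctgf had a log2 fold change of 4.76 ± 0.80 (adjusted p = 0.000202).

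Among the genes at 5 CPM or more whose libraries did not overlap, Galnt15, a glycosyltransferase, had the largest fall and stood at 5.13, 4.85 and 13.4 CPM with vehicle and 0.155, 0.182 and 0.0785 CPM with TGFb1 (log2 fold change -5.75 ± 0.68, adjusted p = 5.23e-06, and -5.12 without vehicle replicate 3, the highest library). Ly6c1, a surface antigen of resting fibroblasts, stood at 72, 61.5 and 72.7 CPM with vehicle and 5.8, 6.24 and 5.05 CPM with TGFb1. Ly6c1 had a log2 fold change of -3.59 ± 0.28 (adjusted p = 2.6e-08). Sfrp2, a secreted Wnt inhibitor, stood at 215, 223 and 361 CPM with vehicle and 22.4, 25.4 and 26.7 CPM with TGFb1. For Sfrp2 the log2 fold change was -3.42 ± 0.38 (adjusted p = 2.12e-06). By the choice of genes without overlap, the highest treated library of each of these 3 genes lay below the lowest vehicle library. Ggt5, a gamma-glutamyl transferase, fell from 6.86 ± 2.57 to 0.337 ± 0.119 CPM, and Dio3, the deiodinase that inactivates thyroid hormone, from 21.7 ± 2.77 to 1.58 ± 0.759 CPM. Ptpn5, a tyrosine phosphatase, fell from 12.8 ± 1.71 to 0.973 ± 0.22 CPM. Nov, a matricellular protein of the family of Ctgf, fell from 8.18 ± 2.47 to 0.647 ± 0.256 CPM. The acute phase gene Saa3 fell from 17.3 ± 8.07 to 1.47 ± 0.322 CPM, and the eosinophil chemokine gene Ccl11 from 9.95 ± 3.64 to 1.02 ± 0.402 CPM. Ranbp3l, Itgb7, Sh3rf2, Aqp1, Ppp1r14c and Akr1c18 completed the 15, at log2 fold changes from -3.97 to -3.30.

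The largest rise in CPM was that of Col1a1 (chromosome 11, 94936224 to 94953042, plus strand), which went from 2475 ± 435 to 9570 ± 1699 CPM. Col1a2 went from 2604 ± 725 to 6534 ± 1184 CPM. Fn1, which encodes fibronectin, went from 2616 ± 315 to 5101 ± 562 CPM, and Postn, which encodes periostin, from 255 ± 59.6 to 3064 ± 542 CPM. Myh9, the heavy chain of nonmuscle myosin, went from 1536 ± 181 to 4143 ± 190 CPM, and the cytoplasmic actin genes Actb and Actg1 from 2958 ± 420 to 5224 ± 285 CPM and from 2127 ± 501 to 4419 ± 469 CPM. The largest losses in CPM were those of Fth1, the ferritin heavy chain (from 3240 ± 507 to 1746 ± 269 CPM), Nid1, a linker of the basement membrane (from 2000 ± 111 to 737 ± 139 CPM), and Rnf213, a ubiquitin ligase (from 2643 ± 374 to 1885 ± 47.2 CPM). Next were C3, the central complement protein (from 1161 ± 193 to 596 ± 55.8 CPM), Pdgfra (from 764 ± 146 to 263 ± 12.6 CPM) and Enpp2, the enzyme that makes lysophosphatidic acid (from 568 ± 40 to 84.6 ± 22.6 CPM). The call of Rnf213 was lost without TGFb1 replicate 3, vehicle replicate 1 or vehicle replicate 3 (adjusted p = 0.0558, 0.07 and 0.0596). S100a6, Gas1, Ly6e and Ahnak fell as well, with log2 fold changes of -0.95, -2.21, -0.77 and -0.61.

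Several genes of TGFb ligands and of their latency rose. Tgfb1 itself (chromosome 7, 25687002 to 25705077, plus strand) stood at 58.4, 66.4 and 54.4 CPM with vehicle and 202, 180 and 213 CPM with TGFb1. Tgfb1 had a log2 fold change of 1.73 ± 0.17 (adjusted p = 5.54e-07). The groups did not overlap, and the lowest treated library was well above the highest vehicle library. Tgfb3 went from 31.5 ± 4.2 to 61.5 ± 7.48 CPM (log2 fold change 0.97 ± 0.14, adjusted p = 3.89e-05), whereas Tgfb2 stood at 32.3 and 49.2 CPM (log2 fold change 0.61 ± 0.31, adjusted p = 0.165, and 0.0455 with the replicate block). Of the 11 tested genes of this list 7 rose and 0 fell (1 with the block), with a median log2 fold change of 0.84. Ltbp2, a latent TGFb binding protein, rose from 102 ± 12.5 to 285 ± 15.3 CPM, and Lrrc32, which tethers latent TGFb to the cell surface, from 132 ± 27.1 to 337 ± 34.5 CPM. Furin, the protease that cleaves the precursor, rose from 178 ± 26.5 to 362 ± 18.3 CPM, and Itgav, the integrin subunit that releases active TGFb, from 144 ± 15.8 to 257 ± 31.1 CPM. Ltbp3 also rose (log2 fold change 0.24 ± 0.07, adjusted p = 0.00937), but did not pass without TGFb1 replicate 1 (adjusted p = 0.0555) or with the 6 libraries alone (0.0614). Ltbp1 stood at 103 and 76.1 CPM (log2 fold change -0.44 ± 0.24, adjusted p = 0.188) and was lower in each same-numbered pair, with an adjusted p of 0.00102 with the block. On the TPM scale, which is corrected for transcript length and allows genes to be compared, Tgfb1 was the highest of the 3 ligand genes in both groups, at 52.7 and 181 TPM, with Tgfb3 at 16.9 and 34.6 and Tgfb2 at 13.1 and 20.6.

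Of the 8 receptor genes 2 rose and 2 fell. Tgfbr3, which encodes betaglycan, the coreceptor that presents ligand, stood at 335, 341 and 402 CPM with vehicle and 120, 138 and 125 CPM with TGFb1. For Tgfbr3 the log2 fold change was -1.49 ± 0.11 (adjusted p = 1.7e-08). Tgfbr2, the type II receptor, stood at 89.7, 106 and 132 CPM with vehicle and 62.2, 70.7 and 75 CPM with TGFb1 (log2 fold change -0.66 ± 0.14, adjusted p = 0.00191), again without overlap. Tgfbr1, the type I receptor, was 36.4 ± 2.12 CPM and 37.5 ± 1.29 CPM (log2 fold change 0.05 ± 0.12, adjusted p = 0.824), a difference that was smaller than its standard error. Cd109, a surface protein that binds the receptor, rose from 19.8 ± 0.95 to 34.4 ± 4.76 CPM. Acvrl1, an alternative type I receptor, rose as well, but from 0.0277 to only 0.258 CPM. The endoglin gene Eng was higher in all 3 treated libraries, at 95.7 and 117 CPM (log2 fold change 0.29 ± 0.12, adjusted p = 0.0728, and 0.046 with the block). Bambi and Tgfbrap1 did not pass.

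Among the SMADs and their regulators several inhibitors of the signal rose. Pmepa1, a membrane protein that takes SMADs from the receptor, stood at 30.1, 28.1 and 22.4 CPM with vehicle and 583, 551 and 651 CPM with TGFb1 (log2 fold change 4.47 ± 0.35, adjusted p = 3.5e-08), the largest change of the list. Ldlrad4, a related membrane protein with the same known role, rose from 2.38 ± 0.412 to 22.1 ± 2.15 CPM. Skil and Ski, the nuclear corepressors of SMADs, rose from 31.8 ± 3.45 to 166 ± 7.41 CPM and from 88 ± 4.94 to 190 ± 4.5 CPM. Smad7, the inhibitory SMAD that binds the type I receptor, rose from 15.7 ± 2.8 to 60.5 ± 5.39 CPM. Smurf2, a ubiquitin ligase that acts with Smad7, rose from 71.2 ± 5.57 to 107 ± 2.55 CPM. Of 17 genes 9 rose and 1 fell, with a median log2 fold change of 0.28. Smad2 and Smad4, which carry the signal, did not pass: Smad2 was 41.3 and 45.1 CPM (log2 fold change 0.13 ± 0.07, adjusted p = 0.184) and Smad4 89.9 and 100 CPM (log2 fold change 0.16 ± 0.06, adjusted p = 0.0554, 0.037 with the block). Smad3 fell from 66.1 to 51.7 CPM (log2 fold change -0.35 ± 0.12, adjusted p = 0.0302), and this call was lost without TGFb1 replicate 1 or 2 or vehicle replicate 2 or 3 (adjusted p = 0.0575, 0.134, 0.0581 and 0.0627). Rises of Smad6, Smurf1 and Tgif1, between 0.28 and 0.63 on the log2 scale, were lost as well: Smad6 without TGFb1 replicate 2 or 3 or vehicle replicate 1 or 3 (adjusted p up to 0.145), Smurf1 without any 1 library except vehicle replicate 2 (up to 0.218), and Tgif1 without TGFb1 replicate 1 or 3 or vehicle replicate 2 or 3 (up to 0.13). With the 6 libraries alone Smad3, Smad6 and Smurf1 did not pass either (adjusted p = 0.0564, 0.0619 and 0.0811). Nedd4l, a ubiquitin ligase of SMADs, was lower in each pair, at 44.2 and 31.3 CPM (log2 fold change -0.50 ± 0.23, adjusted p = 0.112, 0.000981 with the block).

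**Figure D2:**
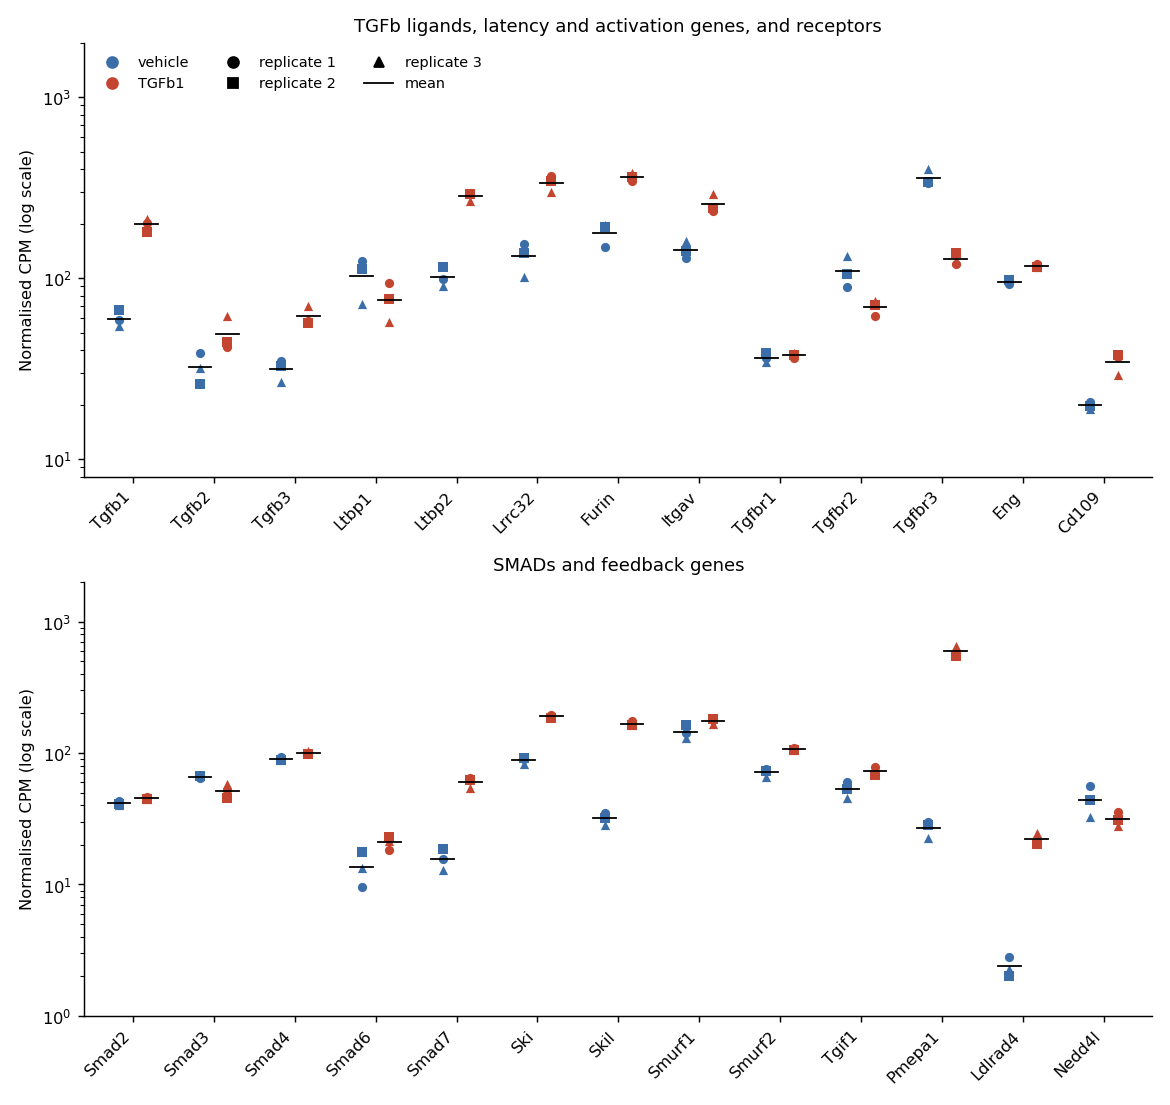
Normalised CPM (y axis, log scale) of genes of TGFb ligands, latency and receptors (top) and of SMADs and feedback (bottom) in the 3 vehicle (blue) and 3 TGFb1 (red) libraries, with marker shapes for replicate numbers and a bar at each mean. Tgfb1, Ltbp2 and Lrrc32 lie higher and Tgfbr2 and Tgfbr3 lower with TGFb1, and Pmepa1 moves most.

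In other growth factor families ligand and receptor genes changed as well. PDGF ligands are mitogens of mesenchymal cells and act through PDGFRa and PDGFRb. Pdgfa stood at 18, 18.2 and 11.8 CPM with vehicle and 93.2, 80.3 and 90.4 CPM with TGFb1. For Pdgfa the log2 fold change was 2.46 ± 0.21 (adjusted p = 7.83e-08). Pdgfc rose from 17.5 ± 1.75 to 79.1 ± 11.2 CPM, and with Pdgfb 3 of the 4 ligand genes rose, the exception being Pdgfd, at 0.0138 and 0 CPM. The receptor gene Pdgfra stood at 752, 625 and 917 CPM with vehicle and 268, 249 and 273 CPM with TGFb1. Pdgfra had a log2 fold change of -1.54 ± 0.14 (adjusted p = 1.66e-07). Pdgfrb rose from 210 to 268 CPM (log2 fold change 0.35 ± 0.12, adjusted p = 0.0434), a call lost without TGFb1 replicate 2 or 3 or vehicle replicate 1 or 2 (adjusted p = 0.0561, 0.247, 0.14 and 0.164). This call was also lost with the 6 libraries alone (adjusted p = 0.0978). Among fibroblast growth factors Fgf2 rose, while Fgf10, a ligand for epithelial FGFR2b, fell from 17.3 ± 1.45 to 4.69 ± 0.985 CPM and Fgfr2 from 34.6 ± 0.552 to 15.8 ± 1.91 CPM. Vegfa and Vegfc, which act on blood and lymphatic endothelium, rose from 180 ± 62.4 to 594 ± 101 CPM and from 37.2 ± 8.18 to 88.7 ± 8.45 CPM. Figf, which encodes VEGF-D, and Angpt1, which stabilises vessels, fell from 56.2 ± 7 to 13.5 ± 1.15 CPM and from 48.9 ± 14.4 to 14.3 ± 4.62 CPM. Hbegf, a ligand of the EGF receptor, rose from 5.11 ± 1.38 to 40.4 ± 7.37 CPM, and Met, the receptor of hepatocyte growth factor, fell from 126 ± 2.86 to 48 ± 6.14 CPM. The insulin-like growth factor gene Igf1 fell from 6.98 ± 5.78 to 1.58 ± 0.801 CPM (log2 fold change -2.19 ± 0.55, adjusted p = 0.00569, and -1.28 with an adjusted p of 0.0612 without vehicle replicate 3), and the binding protein gene Igfbp7 rose from 161 ± 10.8 to 375 ± 15.5 CPM.

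In the BMP and activin list 9 of 33 genes rose and 6 fell, 45.5% called beside 29.0% of all tested genes. Inhba, which encodes activin A, another ligand that signals through SMAD2 and SMAD3, rose from 3.02 ± 1.33 to 72.4 ± 14.3 CPM. Id4, a target of BMP signalling, fell from 2.3 ± 0.42 to 0.843 ± 0.031 CPM. Of 40 Wnt genes 12 rose and 5 fell (2 falls without vehicle replicate 3), 42.5% called beside 29.0% of all tested genes. Beside Wnt11, the ligand genes Wnt5a (from 10.6 ± 1.68 to 31.6 ± 2.88 CPM) and Wnt9a (from 0.0514 ± 0.0223 to 1.47 ± 0.291 CPM) rose. The Notch ligand gene Jag1 stood at 10.1, 11.7 and 15.6 CPM with vehicle and 105, 135 and 173 CPM with TGFb1. For Jag1 the log2 fold change was 3.46 ± 0.38 (adjusted p = 1.9e-06). Hes1, a target of Notch, rose from 7.3 ± 1.17 to 34.8 ± 7.11 CPM. In the hedgehog list the receptor Ptch1 and the factor Gli3 rose by 0.52 ± 0.09 and 0.50 ± 0.10 on the log2 scale, and Gas1, a coreceptor, fell from 496 ± 146 to 107 ± 11 CPM.

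Transcription factors of mesenchymal cells changed in both directions. Of 20 tested 12 rose and 5 fell. Snai1, a repressor of epithelial genes, stood at 61.1, 59.4 and 54.4 CPM with vehicle and 162, 166 and 180 CPM with TGFb1. Snai1 had a log2 fold change of 1.54 ± 0.09 (adjusted p = 1.65e-09). Sox4 rose from 180 ± 17.6 to 499 ± 52.7 CPM, Runx1 from 36.9 ± 4.34 to 208 ± 15.4 CPM and Foxs1 from 0.451 ± 0.216 to 2.55 ± 0.625 CPM. Twist1, another factor of the mesenchymal state, fell from 39.5 ± 3.02 to 24.4 ± 0.138 CPM (log2 fold change -0.70 ± 0.09, adjusted p = 2.04e-05), so that Snai1 and Twist1 moved in opposite directions. Among immediate early factors Egr2 rose from 12.8 ± 4.97 to 95.9 ± 23.1 CPM and Klf2 fell from 2.76 ± 0.565 to 0.798 ± 0.221 CPM, and Srf, the serum response factor, which controls actin and muscle genes, rose from 78.5 ± 12.8 to 147 ± 10.7 CPM (log2 fold change 0.90 ± 0.18, adjusted p = 0.000872).

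Contractile genes are those of smooth muscle that myofibroblasts also use. In this list 13 of 24 members rose, 2 fell (4 without vehicle replicate 2) and the median log2 fold change was 0.67. Acta2, smooth muscle actin, stood at 110, 140 and 124 CPM with vehicle and 784, 978 and 1094 CPM with TGFb1. For Acta2 the log2 fold change was 2.93 ± 0.21 (adjusted p = 1.45e-08). Tagln, its partner transgelin, stood at 13.5, 17.6 and 14.9 CPM with vehicle and 131, 128 and 151 CPM with TGFb1. Tagln had a log2 fold change of 3.16 ± 0.20 (adjusted p = 2.94e-09). Both were several times higher in each treated library than in any vehicle library. Cnn1, calponin, rose from 3.76 ± 0.631 to 23.5 ± 4.72 CPM. Actg2, enteric smooth muscle actin, rose from 1.44 ± 0.259 to 16.4 ± 4.83 CPM, and Tnnt2, the troponin T of heart muscle, from 1.58 ± 0.629 to 38.7 ± 14.3 CPM. Mylk, which encodes the kinase that activates smooth muscle myosin, fell from 3.31 ± 0.319 to 1.02 ± 0.266 CPM (log2 fold change -1.70 ± 0.29, adjusted p = 0.000209). In TPM the list took 0.321 ± 0.0329% of transcripts with vehicle and 0.625 ± 0.0317% with TGFb1.

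Genes of the general actin cytoskeleton followed. Of 30 members 22 rose and 0 fell (median 0.72), and their share of transcripts went from 1.31 ± 0.0611% to 2.23 ± 0.0676%. Cotl1, which binds filamentous actin, stood at 21.9, 27.1 and 24.9 CPM with vehicle and 288, 294 and 354 CPM with TGFb1. Cotl1 had a log2 fold change of 3.66 ± 0.20 (adjusted p = 7.39e-10). Pdlim7, an adaptor of actin filaments, rose from 64.6 ± 4.42 to 223 ± 19.7 CPM, and Csrp1 from 123 ± 8.71 to 321 ± 5.62 CPM. The crosslinker filamin A, Flna, rose from 1483 ± 177 to 3334 ± 342 CPM. Since many of these genes are textbook targets of Srf, which binds the CArG box (2 C, 6 bases of A or T, 2 G), the promoters of this list were read for it. RefSeq (GRCm38.p6) gave 33 promoters, from 250 bases before to 50 after the start, for 25 of the 30 members. A CArG box lay in 5 of the 33 (15.2%), from 4 genes, and in 183 of the 13323 promoters found for tested genes (1.37%), which covered 68.5% of them. The SMAD motif CAGAC was in 48.5% of the list's promoters and 47.5% of all, and its GC form GGCGCC in 9.09% and 20.7%. TGANTCA (AP-1) was in 9.09% and 5.45%, ACATTCC (TEAD) in 6.06% and 2.83%, and TGATGNAA (ATF4 and C/EBP) in 0% and 2.3%. Both strands were searched. The match is to letters only and does not show binding. Because the list was read for holding many known Srf targets, its higher share of CArG boxes follows from the choice of list. The part of Srf in the response was not tested. The 4 following, given 5' to 3' on the gene's strand with the CArG box in capitals, belong to members that rose, and are shown for the position of the box. It begins 90 bases before the start in Actg1 (chr11:120348446-120348745, minus strand), 102 in Fhl1 (chrX:56779433-56779732, plus strand), 31 in Fhl2 (chr1:43163912-43164211, minus strand) and 227 in Vcl (chr14:20929148-20929447, plus strand).
Actg1: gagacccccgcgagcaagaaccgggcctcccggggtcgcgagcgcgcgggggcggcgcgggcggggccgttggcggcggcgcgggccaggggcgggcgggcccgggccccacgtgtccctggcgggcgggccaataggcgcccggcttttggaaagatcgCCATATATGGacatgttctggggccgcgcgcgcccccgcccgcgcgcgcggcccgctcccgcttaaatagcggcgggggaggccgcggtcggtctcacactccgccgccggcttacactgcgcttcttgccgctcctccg
Fhl1: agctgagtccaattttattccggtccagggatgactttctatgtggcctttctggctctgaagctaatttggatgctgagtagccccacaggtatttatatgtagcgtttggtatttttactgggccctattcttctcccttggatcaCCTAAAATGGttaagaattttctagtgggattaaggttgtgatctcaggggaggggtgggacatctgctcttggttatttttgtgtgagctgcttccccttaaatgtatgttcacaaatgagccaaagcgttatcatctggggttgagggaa
Fhl2: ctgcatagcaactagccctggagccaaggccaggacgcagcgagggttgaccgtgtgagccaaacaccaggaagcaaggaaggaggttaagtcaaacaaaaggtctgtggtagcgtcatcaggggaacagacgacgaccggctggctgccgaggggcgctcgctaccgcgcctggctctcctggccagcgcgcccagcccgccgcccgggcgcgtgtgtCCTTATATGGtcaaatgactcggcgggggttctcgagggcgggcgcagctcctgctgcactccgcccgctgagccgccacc
Vcl: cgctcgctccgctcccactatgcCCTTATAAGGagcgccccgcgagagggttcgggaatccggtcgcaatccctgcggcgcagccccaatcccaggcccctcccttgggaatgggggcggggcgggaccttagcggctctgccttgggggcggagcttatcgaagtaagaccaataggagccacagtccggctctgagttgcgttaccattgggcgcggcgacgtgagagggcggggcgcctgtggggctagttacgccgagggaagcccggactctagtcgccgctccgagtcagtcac

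The genes that carry these boxes rose by moderate amounts. Actg1 stood at 1718, 2686 and 1977 CPM with vehicle and 3948, 4886 and 4424 CPM with TGFb1. For Actg1 the log2 fold change was 1.06 ± 0.20 (adjusted p = 0.000675). Vcl, the adhesion protein vinculin, stood at 378, 428 and 375 CPM with vehicle and 640, 689 and 639 CPM with TGFb1. For Vcl the log2 fold change was 0.74 ± 0.19 (adjusted p = 0.00596). The LIM domain genes Fhl1 and Fhl2 went from 7.01 ± 0.962 to 11.3 ± 1.55 CPM and from 58.8 ± 5.96 to 75.2 ± 4.41 CPM, and lost their calls on leaving out 1 library: Fhl1 without TGFb1 replicate 2 or vehicle replicate 1 (adjusted p = 0.0703 and 0.0504), Fhl2 without TGFb1 replicate 3 or vehicle replicate 1 or 2 (adjusted p = 0.0806, 0.053 and 0.0592). Acta2 and Tagln, the contractile genes best known for such boxes, are on another list, which was not read for motifs.

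Integrins link the matrix to actin. Itga5, the fibronectin receptor subunit, stood at 254, 280 and 251 CPM with vehicle and 1190, 1242 and 1242 CPM with TGFb1. Itga5 had a log2 fold change of 2.23 ± 0.13 (adjusted p = 1.13e-09). Itgb3, which pairs with Itgav, rose from 9.15 ± 1.79 to 92.2 ± 5.89 CPM, and Itga2, a collagen receptor subunit, from 0.228 ± 0.0495 to 1.75 ± 0.65 CPM. Of 23 genes 11 rose and 3 fell, the latter led by Itgb7, a leukocyte subunit, which went from 13.5 ± 5.76 to 1.15 ± 0.394 CPM.

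Collagen is the main protein of the fibrous matrix. The list of collagen chains took 0.307%, 0.355% and 0.486% of transcripts in the vehicle libraries and 0.804%, 0.909% and 1.14% in the TGFb1 libraries, 2.49 times as much on average. Of 36 tested chains 19 rose and 6 fell (median 0.99). Col1a1 stood at 2207, 2241 and 2976 CPM with vehicle and 8144, 9117 and 11449 CPM with TGFb1. For Col1a1 the log2 fold change was 1.95 ± 0.16 (adjusted p = 6.69e-08). Col3a1, the chain of type III collagen, rose from 482 ± 247 to 1080 ± 126 CPM. All 3 chains of type V collagen, which starts fibrils, rose: Col5a1 from 580 ± 151 to 2352 ± 354 CPM, Col5a2 from 344 ± 69.3 to 1699 ± 131 CPM and Col5a3 from 154 ± 38.5 to 1529 ± 199 CPM. Col7a1, the anchoring fibril chain of skin, rose from 4.28 ± 0.505 to 40.3 ± 10.5 CPM and Col12a1, which decorates fibrils, from 62.8 ± 2.25 to 208 ± 24.6 CPM. The chains of type VI collagen named Col6a1 and Col6a2 did not pass, at log2 fold changes of -0.26 ± 0.23 and -0.21 ± 0.25. Their adjusted p values were 0.44 and 0.576, 0.068 and 0.237 with the block, and 0.00937 and 0.0326 with the block and the 6 libraries alone. Col24a1 fell from 0.586 to 0.0517 CPM.

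Of 22 genes of collagen processing 13 rose and 2 fell (4 falls without vehicle replicate 1), with Bmp1, which cleaves the C propeptide, at 126, 156 and 181 CPM with vehicle and 456, 518 and 694 CPM with TGFb1 (log2 fold change 1.85 ± 0.17, adjusted p = 2.38e-07) and P4ha3, a prolyl 4-hydroxylase subunit, going from 14.1 ± 0.433 to 40.7 ± 7.81 CPM. P3h2, a prolyl 3-hydroxylase associated with basement membrane collagen, fell from 25.2 ± 6.02 to 4.89 ± 0.273 CPM. Lox, the lysyl oxidase that crosslinks fibrils, stood at 227, 243 and 244 CPM with vehicle and 974, 946 and 1088 CPM with TGFb1 (log2 fold change 2.07 ± 0.14, adjusted p = 7.87e-09), with groups that were again far apart.

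Other matrix genes changed in both directions. Postn stood at 310, 192 and 264 CPM with vehicle and 2631, 2887 and 3672 CPM with TGFb1. Postn had a log2 fold change of 3.58 ± 0.50 (adjusted p = 2.75e-05). Tnc, which encodes tenascin C, rose from 275 ± 74.7 to 1603 ± 411 CPM. Among 24 matricellular genes 11 rose, also Wisp1 (from 93.1 ± 1.7 to 386 ± 14.5 CPM), and 6 fell, led by Nov. In the elastic fibre list 6 of 13 rose and 3 fell: the microfibril gene Fbn1 rose from 245 ± 23.4 to 654 ± 106 CPM and Emilin1 from 115 ± 29 to 373 ± 76 CPM. Emilin2 fell from 479 ± 8.46 to 201 ± 31 CPM, and Eln, elastin itself, was at 0.0202 and 0.0161 CPM. Small proteoglycans parted, as Bgn, biglycan, rose from 1117 ± 168 to 2230 ± 147 CPM. Dcn, decorin, fell from 397 ± 61.6 to 129 ± 31.4 CPM and Ogn, osteoglycin, from 38 ± 12.9 to 5.31 ± 0.798 CPM. Of 15 genes of fibronectin and the basement membrane 2 rose (4 with the block) and 2 fell, a share of 26.7% beside the 29.0% of all tested genes, and Nid1 stood at 2126, 1914 and 1961 CPM with vehicle and 849, 780 and 581 CPM with TGFb1. Nid1 had a log2 fold change of -1.44 ± 0.15 (adjusted p = 8.45e-07). Has2, which makes hyaluronan, rose from 30 ± 4.35 to 123 ± 5.4 CPM.

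In the list of metalloproteases and their inhibitors 15 of 34 rose and 7 fell. The membrane proteases Adam12 and Adam19 rose from 40.3 ± 8.1 to 232 ± 25.7 CPM and from 30.3 ± 5.92 to 148 ± 16.8 CPM. Timp1, an inhibitor, rose from 161 ± 9.08 to 562 ± 84 CPM, and Adamts9, a proteoglycan protease, fell from 111 ± 31.2 to 14.6 ± 2.68 CPM. Plaur, the urokinase receptor, rose from 20.9 ± 5.22 to 66.8 ± 8.77 CPM. The lysosomal protease genes Ctsb and Ctsa fell from 675 ± 82.6 to 402 ± 45.2 CPM and from 191 ± 19.1 to 121 ± 10.4 CPM, and Ctsf rose from 0.136 ± 0.0208 to 4.5 ± 1.06 CPM.

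**Figure D3:**
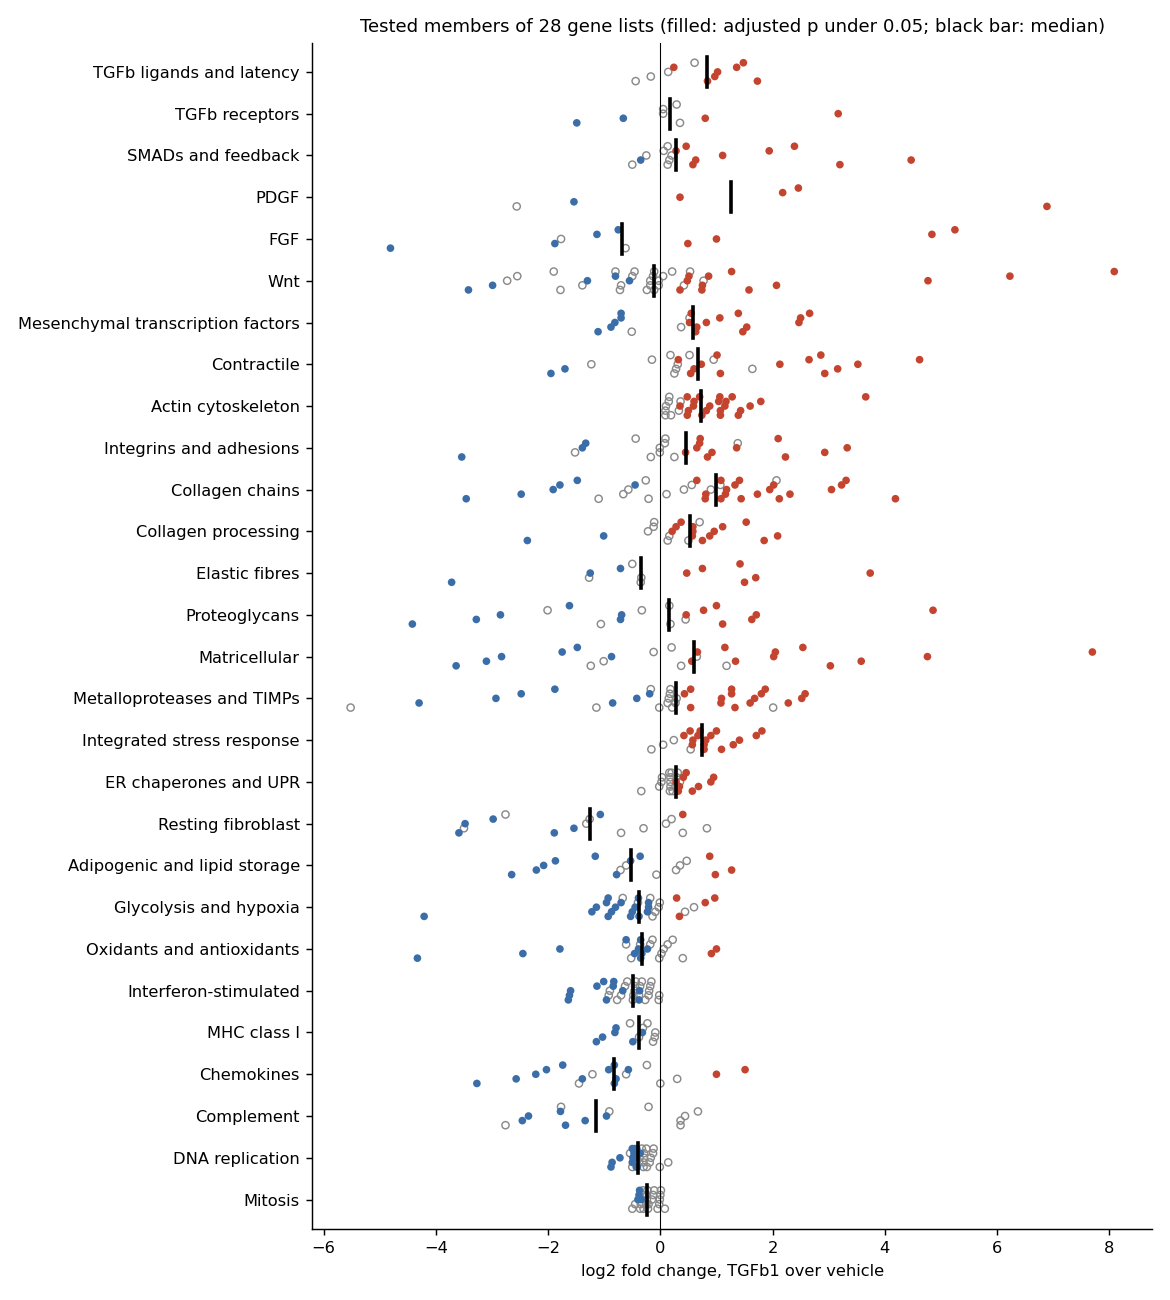
Log2 fold change of TGFb1 over vehicle (x axis) for the tested members of 28 gene lists (y axis), with filled points for an adjusted p under 0.05 (red higher, blue lower), open points for the rest and a black bar at each median. Most actin and stress response genes lie to the right of 0, most DNA replication and MHC class I genes to the left, and matrix lists spread to both sides.

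Of 17 tested genes of the resting state 6 fell and 1 rose (median -1.26), 41.2% called beside 29.0% of all tested genes. The rise was that of Anxa3 (log2 fold change 0.40 ± 0.12, adjusted p = 0.0174), and its call was lost without TGFb1 replicate 1 or 2 or vehicle replicate 3 (adjusted p = 0.0658, 0.0594 and 0.0939). Ly6a, the antigen Sca-1 of mesenchymal progenitors, stood at 202, 207 and 233 CPM with vehicle and 25.6, 31.4 and 24.2 CPM with TGFb1. Ly6a had a log2 fold change of -2.98 ± 0.20 (adjusted p = 4.98e-09). The list of adipogenic and lipid genes had 8 falls and 3 rises (5 with the block) among 17. Cebpd and Klf15, early factors of fat cell formation, fell from 43.2 ± 5.95 to 10.2 ± 0.396 CPM and from 29.1 ± 6.39 to 6.29 ± 0.928 CPM, and Plin2, the coat of lipid droplets, rose from 42.7 ± 5.3 to 84.3 ± 3.55 CPM.

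The integrated stress response is a programme in which the factor ATF4 turns on amino acid transport and synthesis. Of its 20 genes 16 rose and 0 fell (median 0.75). Atf4 stood at 356, 405 and 380 CPM with vehicle and 651, 645 and 666 CPM with TGFb1. For Atf4 the log2 fold change was 0.78 ± 0.08 (adjusted p = 1.68e-06). Ddit4, Chac1 and Sesn2 rose by 1.30 ± 0.16, 1.41 ± 0.18 and 1.00 ± 0.15 on the log2 scale. The one-carbon enzyme genes Mthfd2 and Aldh1l2 of mitochondria rose from 150 ± 13.2 to 239 ± 7.6 CPM and from 212 ± 14.3 to 376 ± 13.2 CPM. Psph, the last step of serine synthesis, rose from 46.1 ± 2.68 to 72.8 ± 2.56 CPM. Of 24 genes of the endoplasmic reticulum 9 rose (15 with the block), 37.5% beside the 14.6% of all tested genes that rose. Among them were Xbp1, a factor of the unfolded protein response (from 97.3 ± 17.8 to 189 ± 17.5 CPM), and Herpud1 (from 71.3 ± 7.82 to 133 ± 6.32 CPM).

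Of 30 genes of glycolysis and hypoxia 17 fell and 4 rose (median -0.39), with 10 falls left without TGFb1 replicate 3 and 2 rises without TGFb1 replicate 2 or without vehicle replicate 3. Adm, a hypoxia target, fell from 2.19 ± 0.677 to 0.124 ± 0.0996 CPM and Ldhb from 49.9 ± 9.01 to 25.6 ± 1.5 CPM. The glucose transporter Slc2a1 and the phosphofructokinase Pfkp rose from 94.1 ± 5.61 to 164 ± 9.89 CPM and from 41.2 ± 5.21 to 80.7 ± 5.66 CPM. In a list of oxidases, antioxidant enzymes and their regulators 10 of 23 genes fell (6 without TGFb1 replicate 3) and 2 rose (1 without TGFb1 replicate 1 or 3 or vehicle replicate 2). The glutathione transferase genes Gsta4 and Gstm1 fell from 324 ± 99.1 to 59.2 ± 24.4 CPM and from 128 ± 2.73 to 36.9 ± 5.66 CPM. Keap1, which represses the antioxidant programme, fell as well (from 100 ± 14.2 to 73 ± 2.06 CPM). Nox4, an oxidase that makes hydrogen peroxide, rose from 0.371 to 0.757 CPM.

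Of 19 chemokine and colony stimulating factor genes 11 fell and 2 rose (median -0.82), with 6 falls left without TGFb1 replicate 3 and 1 rise left on leaving out any 1 of the 6 libraries. Cxcl5, which attracts neutrophils, stood at 204, 308 and 479 CPM with vehicle and 38.4, 62.9 and 66 CPM with TGFb1 (log2 fold change -2.57 ± 0.32, adjusted p = 7.94e-06). Cxcl1, of the same role, stood at 108, 58.8 and 88.4 CPM with vehicle and 22.1, 16.2 and 16.5 CPM with TGFb1. For Cxcl1 the log2 fold change was -2.22 ± 0.21 (adjusted p = 3.12e-07). Cxcl12, a hallmark chemokine of stromal cells, fell from 137 ± 37.4 to 52.4 ± 13.2 CPM, and Cx3cl1 rose from 77 ± 10 to 154 ± 6.04 CPM. Of 14 complement genes 6 fell and 0 rose (median -1.15), 42.9% beside the 14.4% of all tested genes that fell. Without vehicle replicate 1 there were 4 falls and 1 rise, and 1 rise without TGFb1 replicate 2 or with the block. Complement factor I, Cfi, is not on this list and rose from 0 to 0.68 CPM. C1s1, a protease of the first component, stood at 176, 188 and 252 CPM with vehicle and 32.3, 47 and 41.3 CPM with TGFb1. C1s1 had a log2 fold change of -2.35 ± 0.23 (adjusted p = 6.01e-07). The share of transcripts held by the complement list was 0.0809 ± 0.0141% with vehicle and 0.0341 ± 0.00418% with TGFb1. The pentraxin gene Ptx3 and the adhesion gene Vcam1 fell from 234 ± 22.2 to 54.7 ± 6.67 CPM and from 245 ± 29.4 to 108 ± 6.31 CPM. Among cytokines and receptors Il33 fell from 5.32 ± 1.78 to 0.985 ± 0.115 CPM, and Il1rn, the antagonist of interleukin 1, from 125 ± 28.5 to 35.1 ± 3.31 CPM. Il1r1, its receptor, fell from 91.6 ± 9.05 to 41.9 ± 2.48 CPM, whereas Il11, a cytokine of fibrosis, rose from 0.8 ± 0.337 to 5.26 ± 0.839 CPM.

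Of 32 interferon-stimulated genes 11 fell and 0 rose (median -0.49), 34.4% beside the 14.4% of all tested genes that fell. There were 7 falls without vehicle replicate 1, 6 without TGFb1 replicate 3 and 16 with the block. Mx1, an antiviral effector, stood at 95.3, 62.2 and 88.8 CPM with vehicle and 33.1, 28.2 and 18.9 CPM with TGFb1 (log2 fold change -1.62 ± 0.21, adjusted p = 1.66e-05). Oas3, another one, stood at 38.3, 36.3 and 42.3 CPM with vehicle and 14.2, 14.3 and 8.79 CPM with TGFb1. For Oas3 the log2 fold change was -1.64 ± 0.26 (adjusted p = 0.000132). Of 13 genes of antigen presentation by MHC class I 6 fell, 46.2% beside the 14.4% of all tested genes that fell. Among them were Psmb9 (from 21.5 ± 3.69 to 9.76 ± 1.93 CPM) and Psmb10 (from 118 ± 11.1 to 68.4 ± 6.56 CPM), subunits of the immunoproteasome. The heavy chain genes H2-K1 and H2-D1 stood at log2 fold changes of -0.13 ± 0.13 and -0.10 ± 0.12 and did not pass.

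**Figure D4:**
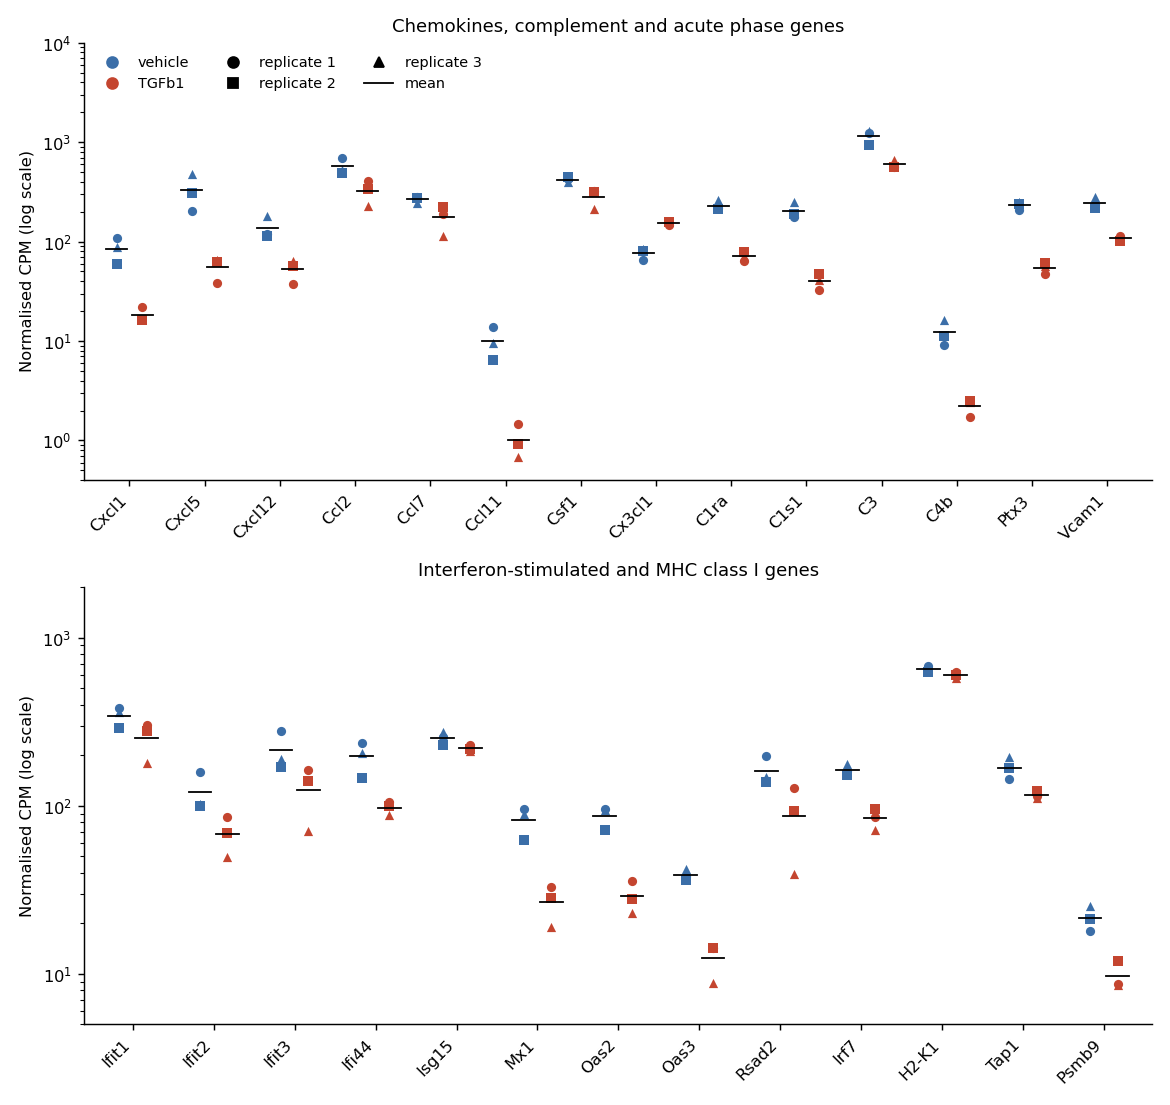
Normalised CPM (y axis, log scale) of chemokine, complement and acute phase genes (top) and of interferon-stimulated and MHC class I genes (bottom) in the 3 vehicle (blue) and 3 TGFb1 (red) libraries, with marker shapes for replicate numbers and a bar at each mean. Cxcl5, C1s1 and Ptx3 are separated by a wide gap, while Ifit1 and H2-K1 lie close or overlap, with TGFb1 replicate 3 often lowest.

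Of 32 genes of DNA replication 14 fell and 0 rose (median -0.39), with 21 falls with the block. The share that fell was 43.8%, beside 14.4% of all tested genes. Lig1, the ligase that joins lagging strand fragments, fell from 145 ± 19.3 to 80.1 ± 11.1 CPM, and Gins1, of the replicative helicase, from 25.2 ± 4.71 to 13.7 ± 2.56 CPM. Among 26 mitotic genes 4 fell, 15.4% beside 14.4% of all tested genes, with 0 without TGFb1 replicate 3, 2 without vehicle replicate 1, 7 without TGFb1 replicate 1 and 13 with the block. Of 27 genes of CDK inhibitors, G1 cyclins and p53 targets 7 rose and 7 fell (median -0.04). Among the rises were the growth arrest genes Gadd45a, Gadd45b and Gadd45g, from 13 ± 3.08 to 55.3 ± 9.39 CPM, from 28.8 ± 3.16 to 52.8 ± 5.07 CPM and from 7.67 ± 1.53 to 23.5 ± 4.78 CPM. Cdk6 fell from 200 ± 13.7 to 132 ± 10.7 CPM.

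The study knocks down 2 HSP90 chaperone genes in other groups. Hsp90aa1 stood at 853, 660 and 604 CPM with vehicle and 671, 606 and 543 CPM with TGFb1 (log2 fold change -0.22 ± 0.30, adjusted p = 0.64) and Hsp90ab1 at 4513, 3753 and 3419 CPM with vehicle and 3782, 3448 and 3120 CPM with TGFb1. Hsp90ab1 had a log2 fold change of -0.18 ± 0.20 (adjusted p = 0.558). Neither passed, and the groups of each overlapped, but both genes were lower in each same-numbered pair. With the replicate block the adjusted p values were 0.632 and 0.54, and with the block and the 6 libraries alone 0.0499 and 0.0641. Trap1, the mitochondrial member, fell from 104 ± 7.54 to 73.6 ± 10.8 CPM (log2 fold change -0.49 ± 0.10, adjusted p = 0.000867).

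Protein-coding genes passed more often than the larger classes of other genes, 31.7% of 13252 against 14.9% of 303 long intergenic, 13.6% of 316 antisense and 3.12% of 512 processed pseudogene loci. The share that passed also depended on level, with 15.9% of genes under 1 CPM and 34.5% of those over 100 CPM. The classes were not compared at like levels, so their shares may differ for this reason alone. Long noncoding genes are read here with the limit that the strand setting of the counting is not given in the sources used here, so that a gene and its overlapping partner on the other strand cannot be told apart. Gm22 (chromosome 8, 122269569 to 122272650, plus strand), a long intergenic RNA, stood at 5.64, 5.01 and 2.65 CPM with vehicle and 148, 148 and 157 CPM with TGFb1. For Gm22 the log2 fold change was 5.09 ± 0.21 (adjusted p = 2.19e-11). It overlaps the gene model Gm20388, to which 10.8 CPM were assigned with vehicle and 0 with TGFb1, so the estimated counts of both are uncertain. Gm22 lies 9491 bases from Zfpm1, a cofactor of GATA factors, which rose from 3.84 ± 1.32 to 25.5 ± 0.604 CPM. Gm20544, which lies 441 bases from Smad7 on the opposite strand, rose from 0.779 ± 0.132 to 4.58 ± 1.03 CPM (log2 fold change 2.55 ± 0.27, adjusted p = 1.16e-06). The antisense gene 4833422C13Rik, which overlaps Ssbp2, rose from 0.00552 ± 0.00955 to 2.29 ± 0.711 CPM while Ssbp2 fell from 43.6 ± 6.66 to 24.6 ± 1.13 CPM.

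Several genes had no counts in one of the groups. A floor of 3 counts over the 3 libraries of that group, 0.0191 CPM with vehicle, gives a lower bound for the fold. By this bound Cntn2, an adhesion protein of axons, was at least 107-fold higher with TGFb1, the ligand gene Wnt7b at least 36.8-fold, the serotonin receptor gene Htr1d at least 36.4-fold and Cfi, complement factor I, at least 35.3-fold. With TGFb1 Nlrp2 was at least 21.1-fold lower. Their levels in the other group were 2.14, 0.712, 0.689 and 0.68 CPM with TGFb1 and 0.443 CPM with vehicle, all low.

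The levels that TGFb1 induced can be set beside those of the other groups, CAF1 with control siRNA and vehicle (CAF) and NF1 (NF) with knockdown and TGFb1. These groups are compared with the same NF libraries, so only levels are given (mean ± SD of 3 libraries), and their differences were not tested. Acta2 was 2550 ± 255 CPM in CAF with control siRNA, Tagln 879 ± 221 and Col1a1 19809 ± 2166, each above the 952, 137 and 9570 CPM of NF with TGFb1. For Postn CAF had 309 ± 212 CPM, beside the 255 ± 59.6 of NF with vehicle, and for Pdgfb a mean of 0.0862 CPM, below it. Tgfbr2 and Pdgfra stood at 553 ± 73.1 and 854 ± 68.5 CPM in CAF, where TGFb1 had left 69.3 and 263 in NF. Ptpn5, almost lost with TGFb1, stood at 476 ± 52.4 CPM in CAF, and C3 at 20.2 ± 6.89 CPM, below both NF groups. With TGFb1 and siHsp90aa1, Ly6c1 was 50.7 ± 21 CPM, Tgfbr3 321 ± 39, Tgfb1 87.9 ± 23.7 and Fgf2 15 ± 1.37, and with TGFb1 and siHsp90ab1 the same genes were 6.16 ± 0.616, 100 ± 4.9, 183 ± 18.6 and 57 ± 16.8 CPM. The knockdown of Hsp90aa1 left Postn at 3191 ± 974 and Col1a1 at 8071 ± 1830 CPM.

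**Figure D5:**
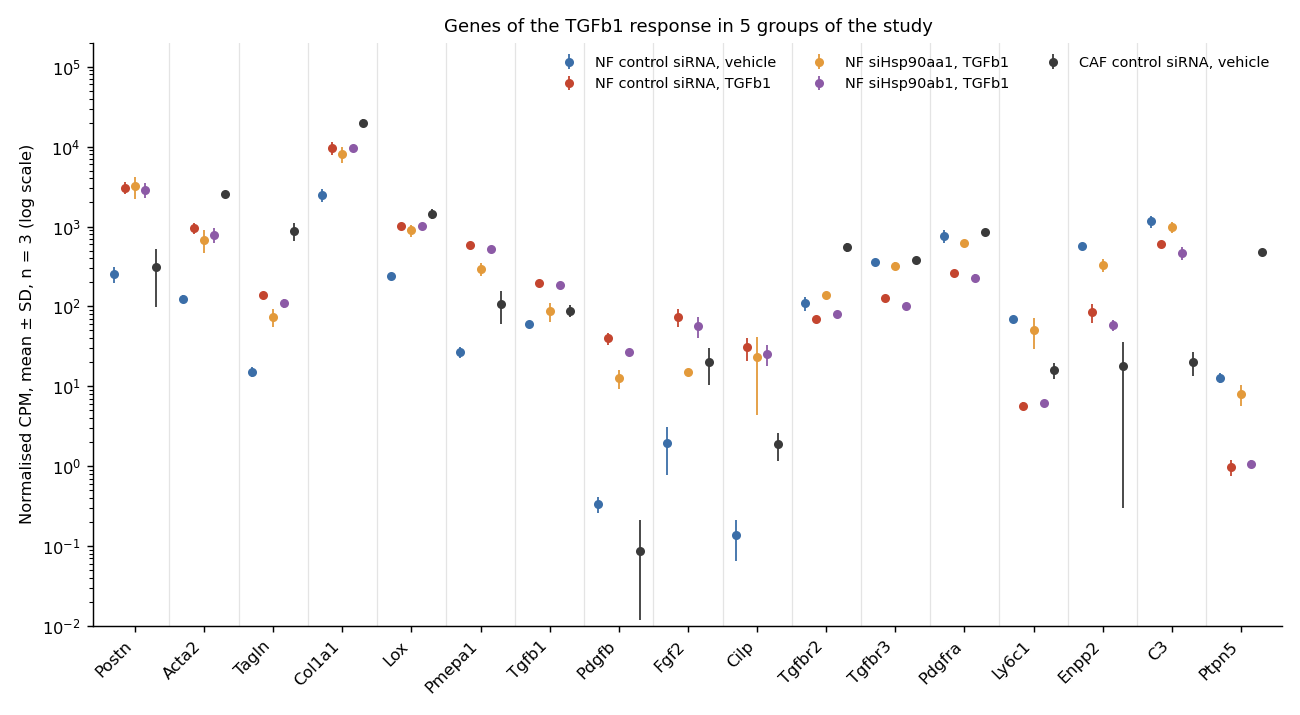
Mean normalised CPM ± SD of 3 libraries (y axis, log scale) of 17 genes in NF with vehicle (blue), NF with TGFb1 (red), NF with TGFb1 and siHsp90aa1 (orange) or siHsp90ab1 (purple), and CAF with control siRNA (black); lower bars that would reach 0 end at 0.012 CPM. Acta2, Tagln and Col1a1 are highest in CAF, Postn and Pdgfb in the NF groups with TGFb1.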

How the data were processed

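The authors deposited estimated counts per gene for 21 libraries, made with STAR and Salmon against GRCm38 per the submitters' processing notes. Versions, annotation and the strand setting used in counting were not stated there or in the labels, while the library kit is stranded per the labels. A deposited TPM value per gene was used only for shares of transcripts and for comparing genes. The estimated counts (10.9% of values not whole) were rounded. Genes with too few counts were dropped (edgeR filterByExpr, minimum count 10, minimum total 15), leaving 15230. All 21 libraries in 7 groups were fitted together with edgeR 4.0.16 (R 4.3.3, TMM scaling, prior count 0.125, quasi-likelihood test of TGFb1 against vehicle, Benjamini-Hochberg adjustment, threshold 0.05). The fit was also run on simulated counts, drawn independently for each library without effects of the replicate number. That run cannot show how the fit behaves with paired libraries, and its outcome is not given here. Errors of log2 fold changes are standard errors, and errors of CPM are SDs over 3 libraries. The labels call the replicate number a batch: deviations of same-numbered vehicle and TGFb1 libraries correlated at 0.719, 0.582 and 0.571 over 10374 genes, and others at -0.597 to 0.131, so the numbers pair the libraries. The main fit does not use this pairing, which enters only where the replicate block is named. Coordinates and gene classes come from GENCODE vM21 (99.5% of genes matched), promoters from RefSeq.

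The gene lists, the marker lists and the comparison were chosen with earlier results of these data known. Genes are named by a rule: the 15 largest rises and falls by log2 fold change without overlap and at 5 CPM or more, the 10 largest by CPM, the 10 smallest p values each way, up to 4 members of each list by p with 1 of the opposite direction, all members of the TGFb, SMAD, PDGF, HSP90 and marker lists, 10 long noncoding genes by p, and genes without counts in 1 group. Col5a3, Col6a1, Col6a2, Eln, Fibp, Gm20388, H2-D1, H2-K1, Inhba, Runx1, Ssbp2, Timp1, Zfpm1, Vcl, Fhl1, Fhl2 and some genes in the plots were chosen after their values were seen. Results for a few genes are not reported here. Alternatives were another scaling (RLE), no filter, DESeq2 1.42.0, the 6 libraries alone, the replicate block, a test against 2-fold (glmTreat), prior count 2 and leaving out each library.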

Additional observations from a re-analysis of the deposited data

How the results depend on the processing

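Tested against a change of 2-fold rather than of 0 (glmTreat), 319 genes rose and 210 fell more than 2-fold, against 724 and 669 that passed and had an estimate past 2-fold. The count of genes that passed, 4410, was 3166 with the 6 libraries alone, 3850 with no filter, 4435 with RLE scaling and 4794 with DESeq2. It ranged from 3329 to 4291 when 1 library was left out, with 1679 to 2170 rises and 1650 to 2165 falls, of which 640 to 715 and 584 to 694 were past 2-fold.

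With the replicate number as a block 5542 genes passed, and 5821 with the block and the 6 libraries alone. Of the 344 genes named by the rule, the block over all libraries gave a call to Tgfb2, Ltbp1, Eng, Smad4, Nedd4l, Krt8 and Krt19 and removed 1 call; it changed no other call among them.

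Of the 313 named genes that passed, 277 kept the call in every alternative run, 36 lost it in at least 1, and 0 reversed. The search of promoters of all genes past 2-fold was not run, because RefSeq promoters covered 64.1% and 67.3% of those that rose and fell, under 80%. Depth limits the low genes: the median standard error of the log2 fold change was 0.51 under 1 CPM and 0.10 over 100 CPM, and 15.9% and 34.5% of these genes passed.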

Other observations

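Genes of axon guidance, many of which also act in cell migration, changed in both directions: of 43 tested 14 rose and 13 fell (8 falls without TGFb1 replicate 2). The semaphorin receptor gene Plxna2 fell from 54.9 ± 7.09 to 14.8 ± 1.88 CPM (n = 3), while the related Plxna4 rose from 0.188 ± 0.0512 to 4.47 ± 0.256 CPM. Unc5b, a netrin receptor, rose from 87.3 ± 21.6 to 260 ± 34.1 CPM, and the ephrin gene Efna2 from 5.08 ± 0.366 to 10.5 ± 0.584 CPM.

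In the retinoic acid list a gene of each of the 2 steps that make the ligand rose. Rdh10, which oxidises retinol, went from 8.82 ± 0.37 to 27.5 ± 0.945 CPM and Aldh1a3 from 0.619 ± 0.242 to 33.4 ± 5.21 CPM. The receptor gene Rarg fell from 200 ± 18.7 to 129 ± 4.16 CPM and Stra6, which takes up retinol, from 0.868 ± 0.279 to 0.128 ± 0.0496 CPM. Over the list 5 of 18 rose (3 without TGFb1 replicate 1) and 4 fell, with a median log2 fold change of -0.09. The list's share of transcripts was 0.0434 ± 0.00371% with vehicle and 0.0418 ± 0.00222% with TGFb1. The estrogen receptor gene Esr1 fell from 18.1 ± 0.299 to 9.77 ± 0.986 CPM and the nuclear receptor gene Nr2f2 from 105 ± 9.58 to 63.4 ± 10.4 CPM. Of 20 cytosolic aminoacyl-tRNA synthetase genes 7 rose and 1, Dars, fell (log2 fold change -0.24, adjusted p = 0.0267 by edgeR). The share called in this list was 40.0%, beside 29.0% of all tested genes. The call of Dars was lost without TGFb1 replicate 2 (0.068), without vehicle replicate 1 (0.11), with the 6 libraries alone (0.119) and with no filter (0.101). Among the rises were Gars, Nars, Tars and Yars, at log2 fold changes between 0.40 and 0.48.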
